A study of Mus musculus with 5 samples.

Results

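Basp1 (ENSMUSG00000045763) was 1 of the 32285 genes counted in single cells of injured mouse kidneys, and its unique molecular identifiers (UMIs, each standing for 1 captured transcript) were followed through the 13 nephron tubule labels that the authors gave to their cells. A cell with at least 1 Basp1 UMI is called Basp1-positive here. Of 23797 labelled cells, 7164 were positive, 1211 of them among the 11062 tubule cells. The gene was chosen by these measured values, its summed UMIs and share of positive cells per label and time, so its own levels, their order and their ratios are given as a description with no test, and tests were run only on other genes. Each library was 1 mouse kidney after ischemia-reperfusion injury (IRI), in which blood flow is stopped and then restored. Mice 1 and 2 were taken at 48 h and mice 3, 4 and 5 at day 10. The labels give no strain, genotype, sex or age, no uninjured kidney was among the samples, and every comparison of times is between different animals.

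BASP1 (brain acid-soluble protein 1) is a small acidic protein that is fixed to the inner face of the plasma membrane by an N-terminal myristoyl group. With GAP43 and the MARCKS proteins it belongs to a group that binds acidic phospholipids and calmodulin and is known from the growth cones of neurons, where these proteins are tied to the actin cortex under the membrane. A nuclear pool acts as a corepressor of WT1, the transcription factor that defines podocytes in the adult kidney. Injured tubule epithelium is known to flatten, rebuild its actin cytoskeleton and switch on keratins and genes such as Havcr1 (kidney injury molecule 1) while transporters are lost.

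The gene lies on the minus strand of chromosome 15 at chr15:25363277-25413764 (GRCm38, GENCODE M21 annotation), and 0 other annotated genes overlapped it. The main transcript, Basp1-201, has 2 exons and 1855 bases, with the whole coding sequence of 678 bases in exon 2 (chr15:25364232-25364909). The first 20 codons (chr15:25364850-25364909, minus strand) are shown because they encode the membrane end of the protein, with the start codon and the 7 lysine codons in capitals.
Basp1 coding start: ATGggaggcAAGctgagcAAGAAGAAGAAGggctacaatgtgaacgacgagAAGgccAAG
The codon after the start, gga, is that of the glycine which carries the myristoyl group, and the lysine codons follow closely behind it. Over all 226 codons, those for alanine (29.2%), glutamate (17.7%), lysine (12.4%) and proline (11.5%) made up 70.8%.

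The libraries held between 3720 and 5912 kept cells with a median of 5823 to 11750 UMIs per cell, and between 3 and 10 barcodes were shared by any pair of libraries. The labels were checked against marker genes by asking whether each marker was highest in its own label. Podocytes held 4 of 4 and intercalated cells 5 of 5 at both times, and the descending thin limb held 4 of 5 at 48 h and 3 of 5 at day 10. Injured proximal tubule held Havcr1 alone of its 6 markers at 48 h and 3 of 6 at day 10, and principal cells held 2 of 4 and 1 of 4. The distal convoluted tubule held 0 of 3 at 48 h and 2 of 3 at day 10, so that its 48 h label went against its markers. The label TEC is not defined in the sources used here, and its cells were shallow (medians of 1556 to 1687 UMIs per mouse).

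At day 10 the descending thin limb, the water-permeable segment that leads from the proximal tubule into the medulla, carried the highest Basp1 level of any label, immune cells included. Basp1 stood at 416, 368 and 484 CPM in mice 3, 4 and 5 (Basp1 UMIs scaled by the summed UMIs of the label's cells, the usual counts-per-1e6 unit), a mean of 422 ± 58.3 (SD, n = 3). At 48 h it was 35.1 in mouse 1, where 1 cell held 22 of 61 UMIs, and 5.07 in mouse 2. Every day 10 mouse lay above both 48 h mice, and the 2 mice of 48 h stood apart from each other. Of all genes tested over time in this label, 38.1% had no overlap between the times, in either direction. The ratio of summed CPM was 19.5 (95% exact counting interval 15.3 to 25.2, which covers counting error only, as do all such intervals here). The label held 6.62% of the tubule cells at day 10 but 53.9% of the Basp1 UMIs of the tubule, against 3.93% and 21.6% at 48 h. Of the label's 5 own markers 2 fell by the edgeR test, the water channel Aqp1 from a mean of 1211 CPM at 48 h to 364 at day 10 (adjusted p = 0.035) and the urea transporter Slc14a2 from 3230 to 498 (adjusted p = 0.0016). Their part in the Basp1 level was not tested.

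Principal cells of the collecting duct, which take up sodium and water under aldosterone and vasopressin, held Basp1 already at 48 h, at 38.9 and 18.9 CPM. At day 10 the values were 121, 96.3 and 86.7 (mean 101 ± 17.9, n = 3), with no overlap between the times and a ratio of 3.39 (2.85 to 4.05). In distal tubule and principal cells, summed, 31.4% of all genes tested had no overlap between the times. Intercalated cells, the acid-base cells of the same duct, were at 4.14 and 7.08 CPM at 48 h and at 37.3, 44.9 and 51.7 at day 10 (ratio 8.37, interval 4.92 to 15.5). Within the duct, principal cells were thus above intercalated cells in every mouse.

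Injured proximal tubule cells carried next to no Basp1 at 48 h and a level that varied between mice at day 10. The 48 h values were 1.86 CPM in mouse 1 (27 UMIs, 12 of them in 1 cell) and 0 in mouse 2, where 3 UMIs would have been 0.919 CPM. At day 10 they were 51.5, 150 and 47.0 CPM (mean 83.0 ± 58.5, n = 3), so mouse 4, with 48 cells of the label, stood above the other mice. The ratio of summed CPM was 37.6 (25.7 to 57.3). Without mouse 4 the day 10 mean was 49.3 CPM. Cells of the proximal tubule that kept their transporters were far lower at day 10: 15.6, 3.72 and 11.2 CPM in S1, the first segment, where 1 cell held 37 of the 159 UMIs, and 4.20, 6.65 and 3.65 in the Lrp2-positive S2/S3 cells. At 48 h these labels were between 0 and 1.41 CPM. The ratio was 12.1 (5.43 to 33.4) in S1, from 6 UMIs at 48 h. In the Lrp2-positive S2/S3 cells it was 20.9 (3.63 to 838), from 1 UMI at 48 h. The Lrp2-negative S2/S3 cells, named by the authors for a lack of the endocytic receptor megalin, were higher. They were at 19.3, 64.0 and 49.6 CPM (11, 8 and 16 Basp1 UMIs) against 2.45 and 4.44 at 48 h, with a ratio of 10.9 (3.89 to 42.2). These cells were shallow, with day 10 medians of 2299, 1928 and 2406 UMIs per cell, against 10072, 12912 and 12842 in S1. Cycling proximal tubule cells were at 128 CPM in mouse 3 and 25.7 in mouse 5 at day 10, against 2.89 and 0 at 48 h. In mouse 3 a single cell held 33 of the 60 UMIs, and mouse 4 had fewer than 20 of these cells and was left out.

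The thick ascending limb, which reabsorbs salt through Slc12a1, was at 1.09 and 0.979 CPM at 48 h and at 19.6, 33.9 and 26.0 at day 10 (26.5 ± 7.16, n = 3; ratio 23.6, interval 15.6 to 37.2). Connecting tubule cells had no Basp1 UMI at 48 h, where a floor of 3 UMIs over the group is 1.93 CPM, and 15.7, 8.94 and 10.8 CPM at day 10, at least 6.13-fold higher. Injured distal tubule cells were low at both times, at 0.526 and 0 CPM (2 UMIs) and then 3.38, 2.84 and 5.36, with a ratio of 11.1 (2.85 to 95.5). The distal convoluted tubule was lowest at day 10, at 1.09, 1.17 and 2.21 CPM, and its range overlapped that of 48 h (5.28 and 0, from 2 UMIs). TEC cells were at 6.24 and 11.4 CPM at 48 h and at 207, 134 and 189 at day 10. A single TEC cell held 30 of the 136 UMIs in mouse 3, and another held 23 of the 74 in mouse 4.

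Ordered by the day 10 mean, and without red blood cells, which had too few cells, the labels ran from descending thin limb over immune cells, TEC, principal cells, interstitial cells, injured and cycling proximal tubule, intercalated cells, Lrp2-negative S2/S3 and thick ascending limb to endothelial cells, connecting tubule, S1, Lrp2-positive S2/S3, injured distal tubule, podocytes and distal convoluted tubule. Neighbours in this order overlapped over mice except at 3 steps: the descending thin limb lay above immune cells, TEC above principal cells, and the thick ascending limb above endothelial cells. As means of single-cell CPM, the labels overlapped at these 3 steps too. TEC was then at 114.5, 77.6 and 216 in mice 3, 4 and 5, against 110.6, 82.0 and 70.5 in principal cells. The thin limb was at 368, 280 and 401 against 317, 138 and 299 in immune cells. The thick ascending limb was at 12.9, 26.0 and 21.2 against 9.30, 9.72 and 15.1 in endothelial cells. Immune cells moved the other way from the tubule, from 512 and 347 CPM at 48 h to 294, 134 and 286 at day 10 (ratio 0.559), although among the authors' clusters this held in cluster 0 (mean 466 and then 239) and not in cluster 5 (355 and then 510, overlapping). Interstitial cells were at 60.8 and 29.7 CPM and then 98.5, 111.8 and 80.7, and endothelial cells overlapped between the times.

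**Figure D1:**
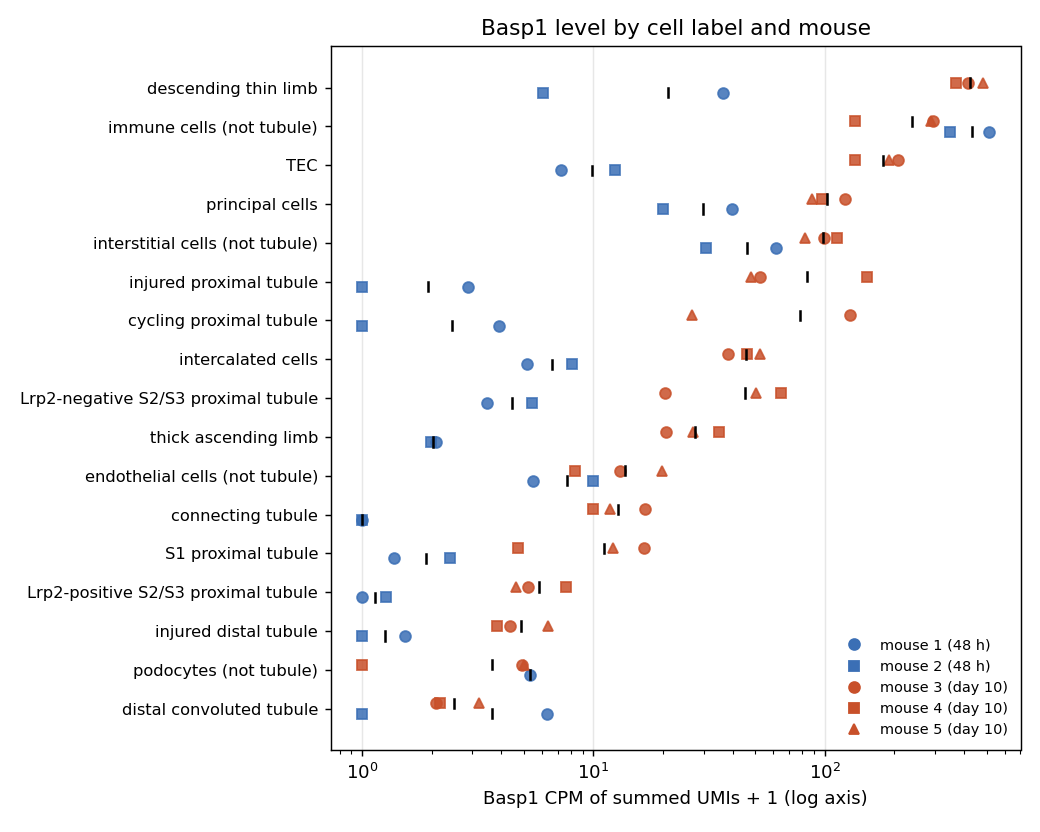
Basp1 level per cell label and mouse, as CPM of summed UMIs plus 1 on a log axis, with 48 h in blue and day 10 in orange; black ticks are group means and label-mouse points with under 20 cells are not drawn. In most tubule labels the day 10 points lie to the right of the 48 h points, in immune cells to the left, and in the distal convoluted tubule they overlap.

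Podocytes, where the WT1 partnership of BASP1 is studied, had almost no Basp1 transcript. There was 1 UMI in 49 podocytes at 48 h and there were 2 UMIs in 116 at day 10, at or under the floor of 3 UMIs (8.82 and 4.45 CPM). Wt1 itself was at 612 to 996 CPM in the same cells of each mouse. Detection of a low Basp1 level in podocytes was limited by the number of these cells.

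Cells with many Basp1 UMIs carried most of the day 10 level in the thin limb and injured proximal tubule, as in most other tubule labels. At day 10, 78.4%, 57.9% and 80.9% of descending thin limb cells were positive in mice 3, 4 and 5, against 16.7% and 4.17% at 48 h. In the distal convoluted tubule, the label with the lowest day 10 mean, 1.61%, 1.69% and 2.27% were positive at day 10, at median depths of 12283 to 13822.5 UMIs against 18756 to 24346.5 in the thin limb. That label was picked by its Basp1 level and is no independent measure of background. With every cell thinned to 1000 UMIs, so that depth was equal, the thin limb shares were 26.4%, 19.3% and 27.5% at day 10 against 2.77% and 0.332% at 48 h. Injured proximal tubule cells were positive in 20.7%, 41.7% and 25.9% at day 10 and in 1.19% and 0% at 48 h (thinned: 4.45%, 11.7% and 4.51%, and 0.141% and 0%). Over the day 10 mice, 195 of 419 thin limb cells held 5 or more Basp1 UMIs, with a median of 7 UMIs per positive cell and a maximum of 89, and these 195 cells carried 93.8% of the label's Basp1 UMIs. In injured proximal tubule 70 of 604 cells held 5 or more, and these 70 cells carried 82.9% of the label's Basp1 UMIs. Such cells carried 76.2% in intercalated cells and 73.2% in principal cells. In TEC, cycling proximal tubule, connecting tubule, Lrp2-positive S2/S3, thick ascending limb and S1 they carried 50.8% to 64.2%. The share was 47.1% in injured distal tubule and 0% in Lrp2-negative S2/S3 and the distal convoluted tubule. In immune cells it was 64.3%. Without the cells of 5 or more UMIs the injured proximal tubule mean was 13.7 CPM, the thin limb mean 63.3 and the principal cell mean 32.5.

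**Figure D2:**
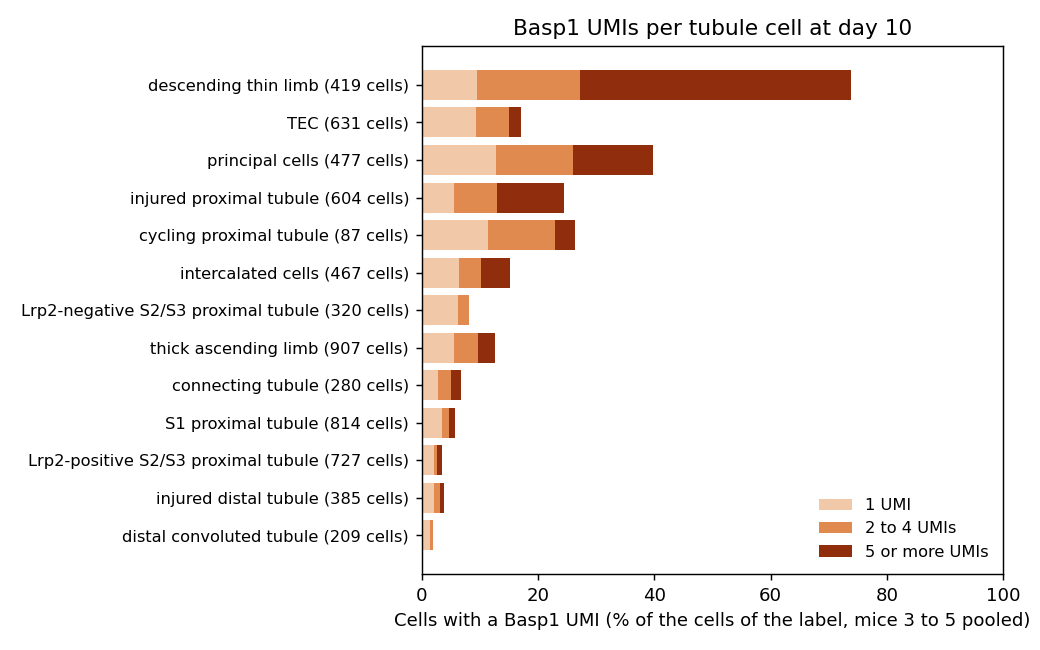
Share of cells of each tubule label at day 10 (mice 3 to 5 pooled) with 1, 2 to 4, or 5 and more Basp1 UMIs, in percent of the label's cells and without thinning. The descending thin limb is the label drawn here in which cells of 5 or more UMIs, 195 of 419, outnumber the positive cells with fewer.

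Since immune cells are rich in Basp1, their transcripts were counted in the same tubule cells. UMIs of 5 immune markers (Ptprc, Tyrobp, Fcer1g, Laptm5 and Coro1a) were summed, and immune cells held 2.34 to 6.14 Basp1 UMIs per 100 of these. Descending thin limb cells held 903 to 1516 per 100 at day 10, principal cells 114.1 to 188, TEC 68.5 to 115, intercalated cells 36.0 to 93.1, injured proximal tubule cells 51.5 to 546 and thick ascending limb cells 23.7 to 30.2, all above the range of immune cells. Above it too were cycling proximal tubule (16.9 to 35.7), Lrp2-negative S2/S3 (12.6 to 66.7), connecting tubule (9.68 to 30.5) and, narrowly in mouse 4, S1 (6.38 to 25.7). Lrp2-positive S2/S3 cells (3.80 to 6.77), injured distal tubule (4.10 to 7.74) and distal convoluted tubule (1.05 to 3.26) lay at or close to the immune range. When tubule cells with 2 or more of these immune UMIs were left out, the day 10 mean was 387 CPM in the thin limb, 169 in TEC, 109 in principal cells, 89.4 in injured proximal tubule, 45.1 in Lrp2-negative S2/S3, 43.2 in intercalated cells and 22.7 in thick ascending limb. It was 25.7 CPM in cycling proximal tubule (76.8 with all cells, 2 mice), 6.35 in S1 (10.2 with all cells), 0.819 CPM in Lrp2-positive S2/S3 cells, 1.65 in injured distal tubule, 6.23 in connecting tubule and 0 in the distal convoluted tubule.

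**Figure D3:**
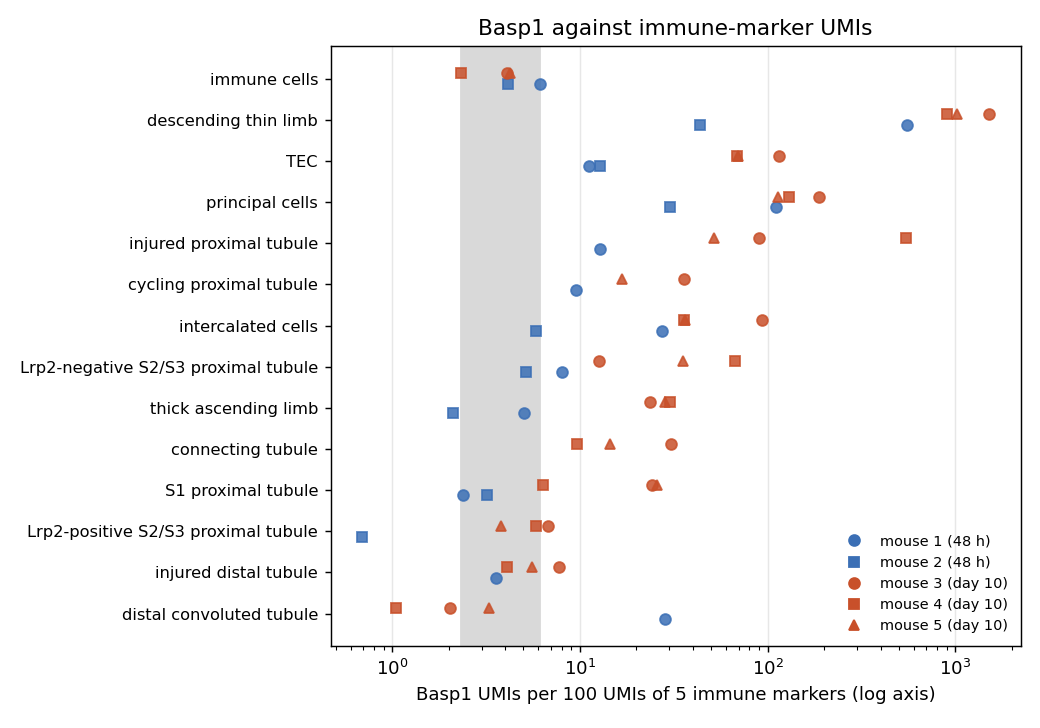
Basp1 UMIs per 100 UMIs of 5 immune markers in each tubule label and in immune cells, per mouse, on a log axis; the grey band spans the immune cells of the 5 mice and points with no Basp1 UMI are not drawn. Thin limb points of day 10 lie between 903 and 1516, far to the right of the band, and those of the distal convoluted tubule at day 10 lie inside or to the left of it.

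To describe what else Basp1-positive tubule cells express, each was matched to a negative cell of the same mouse and label with a total UMI count within 10%, and the UMIs of each class were summed per mouse. The classes were compared over all other genes with the quasi-likelihood test of edgeR, with mouse as a block and Benjamini-Hochberg adjustment, and fold changes are positive over negative. Over all tubule labels there were 60, 42, 290, 178 and 346 pairs in mice 1 to 5, and 1870 of 11878 genes (15.7%) passed, 7.56% higher and 8.18% lower. Positive cells held a median of 4617.5, 4829.5, 5031, 5001 and 4709.5 genes in mice 1 to 5 and their negative partners 4417.5, 4931.5, 4746, 4902 and 4553, so the positive cells were the richer in 4 of 5 mice. Of the tubule injury list (24 genes) 20 were higher in positive cells, 12 of 23 tested without mouse 5. All 13 immune markers were higher in the pooled positive cells, 24.1% of which held 2 or more immune UMIs in mouse 3 against 14.1% of the negative cells, so that the comparison is given below within segments.

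In injured proximal tubule (mice 3, 4 and 5 with 62, 16 and 65 pairs), Basp1-positive cells were higher in 18 of 22 tubule injury genes and 17 of 21 cortical actin genes and lower in every proximal tubule marker tested. Of 9916 genes, 1913 (19.3%) passed, 903 higher (9.11%) and 1010 lower (10.2%). Cxcl5, a neutrophil attractant, was at 276, 251 and 360 CPM in positive cells of mice 3, 4 and 5 and at 3.41, 6.48 and 2.35 in negative cells (log2 fold change 6.21, SE 0.27, adjusted p = 1.2e-06). Ccl2, the monocyte attractant, was at 552, 850 and 554 against 33.5, 2.16 and 18.8 (4.55, SE 0.36, adjusted p = 1.9e-05). In neither gene did the classes overlap, which also held for 36.8% of all genes tested there. The other large rises by the rule were Cxcl2 (log2 fold change 4.35), the mechanosensitive cofactor Ankrd1 (4.32), Pdlim4 (3.96), the protease Adamts5 (3.60), Serpina1b (3.60), Thbs1 (3.52), the calcium-binding S100a6 (3.50) and the tendon transcription factor Scx (3.18). Fst, the activin antagonist that marks the thin limb, held 207 UMIs in positive and 2 in negative cells, and Bst1, another thin limb marker, passed (1.88, adjusted p = 0.010) at 106, 194 and 72.0 CPM against 9.10, 134 and 8.22. All 4 thin limb markers tested were higher, 1 of 4 without mouse 5 and 2 of 4 without mouse 3 or without immune-marked cells. The thin limb urea transporter Slc14a2 was too low to be tested, with 14 and 2 UMIs.

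The transporters of the proximal tubule were lower in these positive cells. The phosphate carrier Slc34a1 was at 334, 12.5 and 441 CPM against 1450, 994 and 1923 (log2 fold change -3.04, SE 0.45, adjusted p = 0.00086). The lactate carrier Slc5a12 (-3.23), the glucose carrier Slc5a2 (-3.03), the anion carrier Slc22a8 (-2.98), Apob (-3.14), Ugt2b38 (-3.11), Snhg11 (-3.30), the fibrinogen chains Fgb (-2.97), Fgg (-2.95) and Fga (-2.88) and megalin, Lrp2 (-1.90), also passed. All 3 S1 markers and all 7 S2/S3 markers were lower, and all 6 injured proximal tubule markers were higher, among them Krt20 (2.60), Cdh6 (2.28), Vcam1 (1.54) and Havcr1 (0.99). These 6 markers are also members of the tubule injury list. Of the 24 genes of the tubule injury list, 22 were tested and 18 were higher (median log2 fold change 1.43, against 0.015 over all genes tested), with Krt18 at 172, 380 and 151 CPM against 12.5, 54.0 and 14.1 and Cd24a at 322, 267 and 146 against 27.3, 49.7 and 12.3. Of the cortical actin list 17 of 21 were higher, led by thymosin Tmsb4x (2.47), vimentin Vim (2.32) and filamin Flna (2.06), and 11 of 21 without mouse 5. The growth-cone and membrane-effector list, which holds the kin of Basp1, had 8 of 15 higher and 0 lower: Marcks stood at 130, 169 and 165 CPM against 19.3, 21.6 and 20.5 (2.62, SE 0.17, adjusted p = 7.4e-06), with Cd44 (2.53), Tubb6 (2.25, adjusted p = 0.011), Ncam1 (2.09) and Dpysl2 (2.08). Of the WT1 list Ets1 (1.62) and Junb (1.22) were higher and Vegfa (-1.22) lower among 11 tested. Tubb6 did not pass without mouse 3, and Bst1 did not pass without mouse 5 (adjusted p = 0.097) or without the immune-marked cells (0.092).

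The matched classes differed in other measures. Positive cells had a lower median share of mitochondrial UMIs, 7.01%, 5.95% and 6.87% against 19.9%, 12.6% and 16.6% in mice 3, 4 and 5. Immune-marked cells made up 30.6%, 12.5% and 20% of positive and 11.3%, 18.8% and 12.3% of negative cells. When pairs were also matched on the mitochondrial share, mice 3 and 5 kept enough pairs (41 and 33), which gives values but no test. Ccl2 then no longer differed in a common direction, at 551 against 438 CPM in mouse 3 and 192 against 245 in mouse 5, nor did Fgg, at 216 against 208 and 150 against 243, or Fgb, at 113.4 against 76.0 and 19.1 against 50.9. Fga was at 133 against 139 and 106 against 171, and Serpina1b at 121 against 78.5 and 79.4 against 62.8. Cxcl2 was at 149 against 86.8 in mouse 3 and 134 against 9.74 in mouse 5. Cxcl5 remained higher at 179 against 7.44 and 47.7 against 3.25, as did S100a6, at 2265 against 113.2 and 1614 against 431, and Krt18, at 136 against 23.1 and 129 against 39.0. Slc34a1 remained lower, at 384 against 907 and 727 against 1448. Of the immune markers 4 of 11 were higher, 13 of 13 without mouse 4 and 0 of 6 without mouse 5. Left without the immune-marked cells, 0 of the 4 immune markers tested passed, and 16 of 22 injury genes and 17 of 21 actin genes were higher in that fit.

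**Figure D4:**
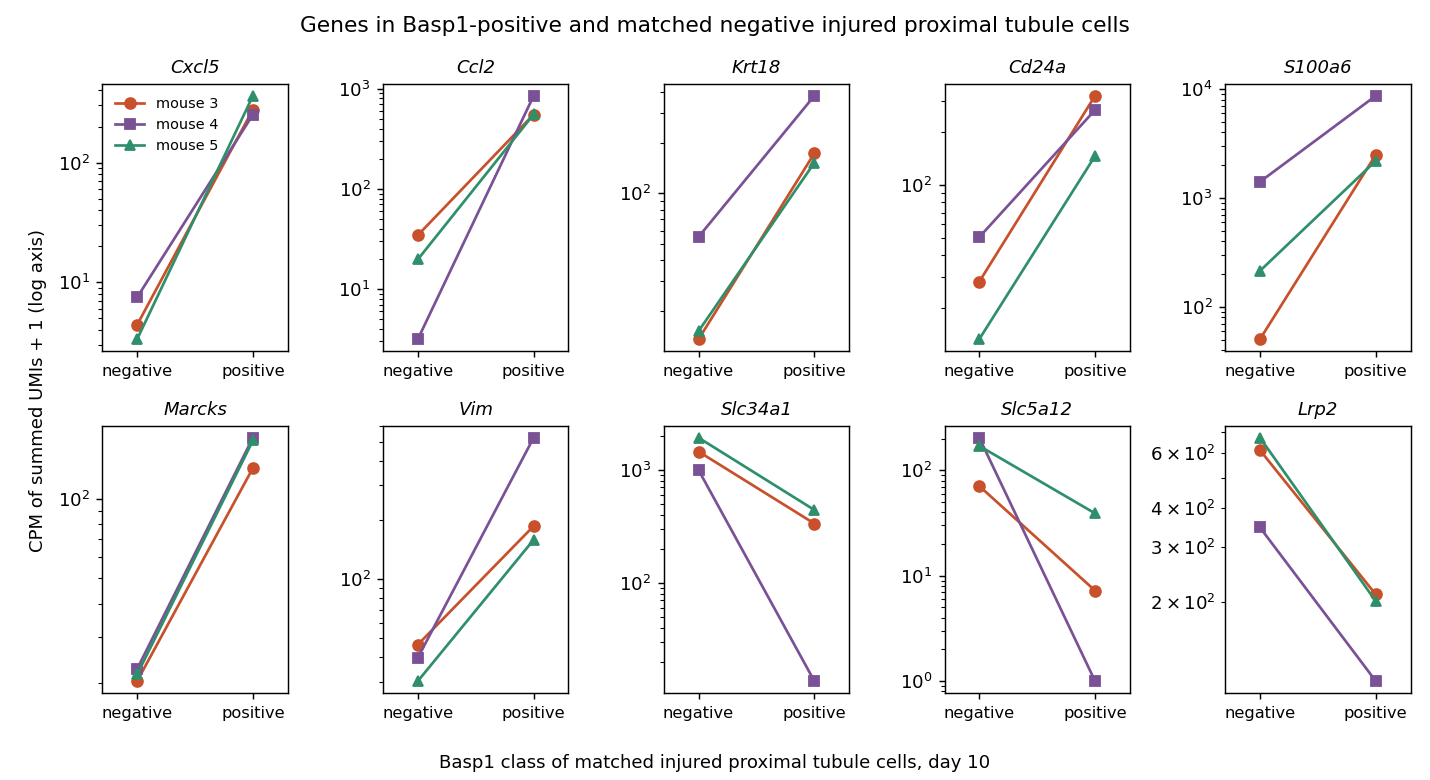
CPM plus 1 (log axis, each panel with its own range) of 10 genes in Basp1-negative and Basp1-positive injured proximal tubule cells matched on mouse and total UMIs, 1 line per mouse of day 10. All lines of Cxcl5, Ccl2, Krt18, Cd24a, S100a6, Marcks and Vim go up and those of Slc34a1, Slc5a12 and Lrp2 go down.

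In the descending thin limb 7 of 22 tubule injury genes were higher in the positive cells, and the largest fall was that of Tagln. The comparison rested on mice 1, 3, 4 and 5, in which 12, 24, 31 and 24 of 15, 116, 66 and 127 positive cells found a negative partner of like depth, and 162 of 5918 genes passed (2.74%; 1.42% higher, 1.32% lower). Krt19 was at 124, 227, 200 and 114.3 CPM in positive cells against 35.0, 27.2, 39.5 and 29.4 (log2 fold change 2.40, SE 0.22, adjusted p = 7e-06), with no overlap between the classes (4.88% of all genes tested had none). Krt8 (1.71), Krt18 (1.53) and Krt7 (1.31) were higher with it, as were the stress cytokine Gdf15 (2.22), Plk2 (1.97), the tight junction claudin Cldn3 (1.72), Id1 (1.66) and S100a6 (1.62). On the lower side stood Tagln, a smooth muscle actin binder, at 0, 5.32, 1.43 and 6.01 CPM against 24.5, 1381, 160 and 392 (log2 fold change -7.20, SE 0.29, adjusted p = 3e-10). The matrix genes Tnc (-3.71), Bgn (-3.07), Sparc (-3.05) and Aebp1 (-2.48), Vim (-3.02), Htra1 (-2.19), Cdo1 (-2.15) and Aqp1 (-2.17) were lower too. The 6 interstitial markers were not read from this fit, so their levels in the classes are not given. Aqp1 was at 58.6, 135, 450 and 66.2 CPM in positive against 840, 398, 1261 and 421 in negative cells.

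Of the injury list 7 of 22 were higher in the thin limb and Vcam1 (-0.99) was lower (median 0.42, against 0.006 over all genes), and without mouse 4 the count was 4 of 20. The actin list had 5 of 21 higher, led by the annexin Anxa1 (2.01), and Vim lower; 10 of 22 were higher without mouse 1 and 2 of 21 without mouse 4. Anxa1 itself had an adjusted p of 0.095 without mouse 4. From the growth-cone list Marcks was higher (1.04, adjusted p = 0.031) and the adhesion molecule Ncam1 lower (-1.32, SE 0.20, adjusted p = 0.0015) among 13 tested, and Marcks did not pass without mouse 4 (adjusted p = 0.17) or mouse 5 (0.12). Junb (0.88) and Wnt4 (1.27) of the WT1 list were higher among 10 tested, and Wnt4 did not pass without mouse 3, 4 or 5 (adjusted p = 0.084, 0.079 and 0.12). Immune-marked cells made up 4.17% to 16.1% of positive and 0% to 12.9% of negative cells.

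In the thick ascending limb (mice 3, 4 and 5 with 48, 31 and 35 pairs) positive cells were lower in the genes that define the segment. There 455 of 7948 genes passed (5.72%; 2.76% higher, 2.97% lower). The kallikrein Klk1, a secreted protease of the distal nephron, was at 151, 380 and 119 CPM in positive cells against 1418, 3392 and 1281 (log2 fold change -3.31, SE 0.12, adjusted p = 2e-11). The growth factor Egf was at 15.3, 26.8 and 13.5 against 86.0, 159 and 210 (-2.99), and the parathyroid hormone receptor Pth1r (-1.68) was lower as well. All 4 segment markers were lower, Slc12a1 (-1.65), Cldn16 (-1.44), Ppp1r1a (-1.25) and uromodulin, Umod (-0.91), also when immune-marked cells were left out. Higher were the injury list genes Vcam1, at 61.9, 31.9 and 60.1 CPM against 2.92, 2.57 and 3.69 (4.02, SE 0.32), Akap12 (1.77), Krt18 (1.48) and Krt19 (1.36), 7 of 22 in all (median 0.21, against 0.004 over all genes) and 4 of 22 without mouse 5. Vim (2.04) led 6 of 22 actin genes, 2 of 22 without mouse 5. Marcks (1.49) and Cd44 (1.49) were the growth-cone genes that passed of 13, and Cd44 did not pass without mouse 5 (adjusted p = 0.075). Vdr (-0.996) was the WT1 list gene that passed of 11, and it did not pass without mouse 4 (0.095) or mouse 5 (0.14). The binding protein Igfbp2 had the largest rise (6.65), uneven between mice at 144, 2190 and 20.9 CPM against 10.2, 0 and 1.23.

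Immune transcripts went with the Basp1-positive class in this segment. Of the immune markers 10 of 12 were higher, and immune-marked cells made up 33.3%, 32.3% and 34.3% of positive against 14.6%, 19.4% and 5.71% of negative cells. The class II antigen genes H2-Aa (4.62) and Cd74 (3.84) were among the largest rises, and Cd74 stood at -0.44 (adjusted p = 0.49) without immune-marked cells. Left without immune-marked cells, 0 of 2 immune markers tested passed, and 8 of 20 injury and 8 of 20 actin genes were higher.

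Principal cells, compared in all 5 mice (20, 16, 51, 37 and 74 pairs), gave 198 of 8159 genes (2.43%; 1.31% higher, 1.12% lower). All 4 principal cell markers were lower in positive cells. The vasopressin-regulated water channel Aqp2 was at 1859, 4116, 652, 853 and 730 CPM in positive cells of mice 1 to 5 against 4039, 3880, 1392, 2140 and 2081 (log2 fold change -0.95, SE 0.16, adjusted p = 0.0025), lower in 4 of 5 mice. Aqp3 (-0.93), the steroid-protecting enzyme Hsd11b2 (-0.71) and the sodium channel subunit Scnn1g (-0.71) were lower too, Scnn1g not without mouse 5 (adjusted p = 0.12). The calcium exchanger Slc8a1 (-0.98) and Id3 (-1.03) were also lower. The stress regulator Nupr1 (1.92), the growth factor Pdgfb (1.62), Plac8 (1.60), Pmepa1 (1.34) and S100a6 (1.17) were higher. The injury list had 11 of 19 higher and 0 lower (median 0.53, against -0.001 over all genes), led by Akap12 (2.05) and with Krt19 (0.85) and Lcn2 (0.66). Akap12 was not higher in mouse 2, at 5.01 CPM in positive against 5.045 in negative cells. The count for the injury list was 7 of 18 without mouse 3 and 5 of 18 without mouse 5. The actin list had 7 of 21 higher, led by Anxa3 (1.44) and moesin, Msn (1.39), and 4 of 21 without mouse 5. Ncam1 (1.5, SE 0.16, adjusted p = 6.9e-05) and Marcks (0.70) passed of the 11 growth-cone genes, Marcks not without mouse 4 (adjusted p = 0.098) or mouse 5 (0.22). In mouse 2 Marcks was lower in positive cells, at 30.1 against 37.8 CPM. By the edgeR test 0 of 10 WT1 list genes passed, with 1 at an unadjusted p under 0.05 and 0 by DESeq2. Immune-marked cells made up 15% to 27.0% of positive and 18.9% to 37.5% of negative cells, less of the positive class in 4 of 5 mice. The calls in this segment rest on the block for mouse, without which 0 genes passed (450 at an unadjusted p under 0.05).

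**Figure D5:**
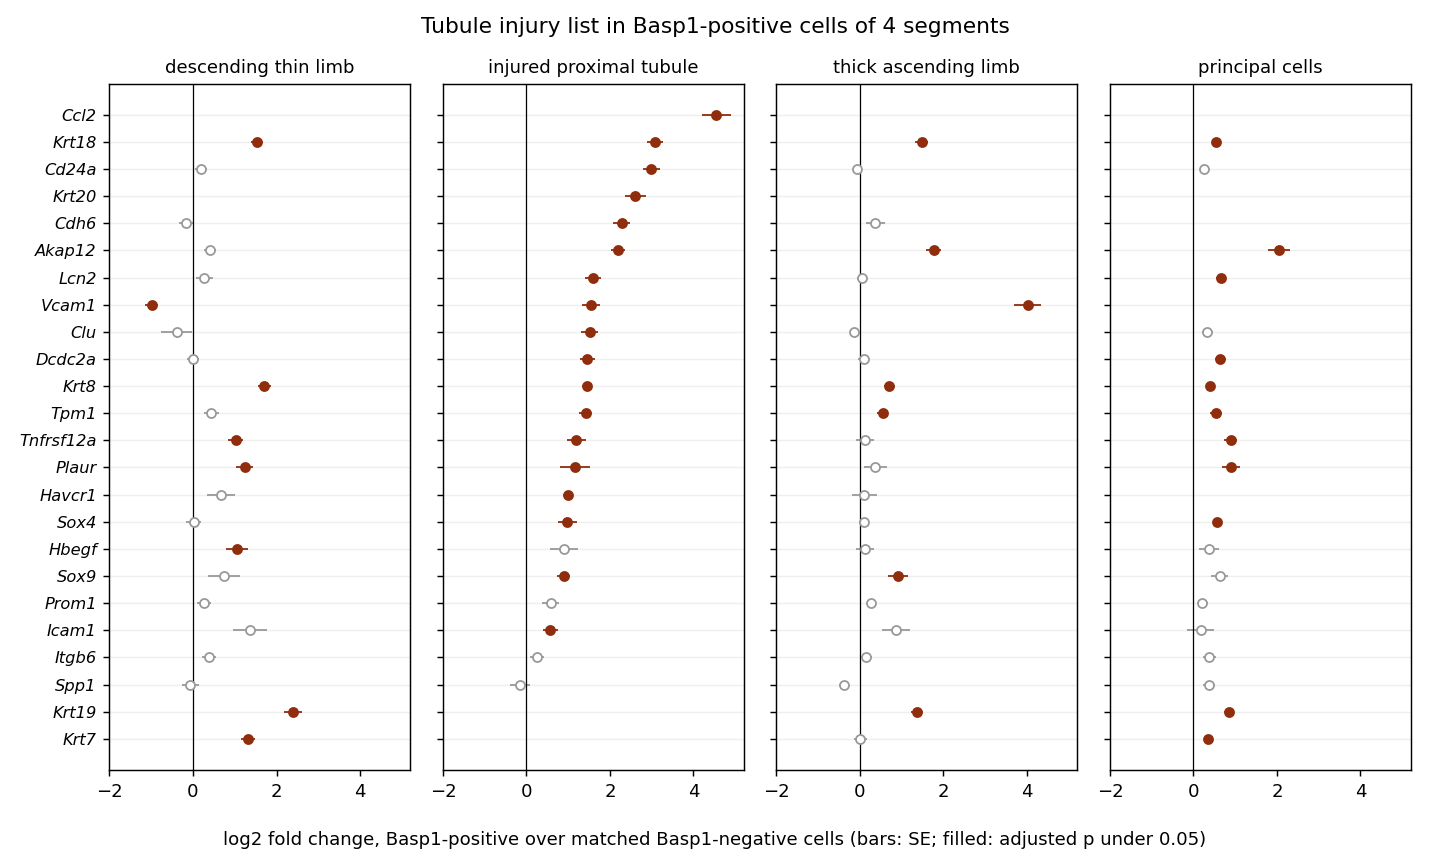
Log2 fold change of tubule injury genes between Basp1-positive and matched Basp1-negative cells in 4 segments, with the standard error as bars and filled points for adjusted p under 0.05; genes without a point did not pass the filter on low counts. Filled points lie to the right of 0 for 18 genes in injured proximal tubule, 11 in principal cells and 7 each in the thin and thick limbs, and Vcam1 lies to the left in the thin limb.

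The lists were then read from whole segments at day 10 against 48 h. In injured proximal tubule 726 of 12353 genes passed (5.88%; 2.76% higher, 3.12% lower), and with 2 mice against 3 these counts depended on single mice (125 without mouse 2, 107 without mouse 3, 182 without mouse 5). Fold changes here are centred, since the median gene was 0.46 higher on the log2 CPM scale at day 10. The centred log2 fold change of Basp1 was 5.36 (no test). Of its kin, Marcks rose from 3.93 and 0.919 CPM to 40.7, 83.5 and 53.7 (3.81, SE 0.45, adjusted p = 0.011) and Cd44 from 2.21 and 4.90 to 66.9, 132 and 81.0 (4.46, SE 0.41, adjusted p = 0.0082), and 5 of 15 growth-cone genes rose in all. The injury list had 8 of 24 rising, among them Ccl2 (6.29, SE 0.38) and Vcam1 (3.94, SE 0.48), and 2 of 24 without mouse 2 or without mouse 3 and 4 without mouse 5. The actin list had 3 of 23 rising (1 without mouse 2 or 3). The WT1 list had 2 of 15 rising, Ets1 and Areg, and 0 without mouse 2, 3 or 4 or without immune-marked cells. In the same cells 5 of 13 immune markers rose, 0 without mouse 2 and 1 without mouse 1, 3 or 5. Of the thin limb markers 3 of 5 rose there (median 3.31; 0 without mouse 1 or 2, 1 of 4 without mouse 3), and 2 of 7 S2/S3 markers fell (0 without mouse 2, 3 or 5). The median mitochondrial share of the Basp1-negative cells of the label was 21.7% and 23.8% at 48 h and 19.8%, 14.0% and 17.6% at day 10. The part of these measures in the list counts was not tested. Over all proximal tubule labels Basp1 stood at 1.61 and 0.684 CPM and then 29.0, 35.3 and 22.1. There 447 of 13899 genes passed (3.22%; 1.28% higher, 1.94% lower), 42 without mouse 3 and 27 without mouse 5. There 4 growth-cone genes rose and Stmn1 fell among 15, with 2 rising without mouse 5. In the same cells 5 of 13 immune markers (median 1.20) and 2 of 5 thin limb markers (median 2.12) rose, 0 of each without mouse 5. In the injury list 2 of 24 rose (9 without mouse 1, 1 without any other mouse) and in the actin list 2 of 23 (0 without mouse 3 or 5). By edgeR 0 of 17 WT1 list genes passed (3 higher and 2 lower at an unadjusted p under 0.05, and 2 higher by DESeq2).

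In the descending thin limb 573 of 11192 genes passed (5.12%; 2.77% higher, 2.35% lower), and the centred log2 fold change of Basp1 was 4.26 (no test). Marcks rose from 19.0 and 14.5 CPM to 140, 73.2 and 96.8 (2.56, SE 0.32, adjusted p = 0.0032), and Anxa1 from 17.3 and 16.7 to 135, 229 and 192 (3.39, SE 0.28, adjusted p = 0.00041). Of the lists, 5 of 15 growth-cone genes rose (3 without mouse 2, 3 or 5), 10 of 24 injury genes (5 without mouse 2) and 3 of 23 actin genes, with 5 of 11 immune markers (1 of 13 without mouse 1 or mouse 2). None of the 14 WT1 list genes passed by edgeR or DESeq2 (2 higher and 1 lower at an unadjusted p under 0.05). In the thick ascending limb 1325 of 12797 genes passed (10.4%; 4.98% higher, 5.38% lower), but 86 without mouse 5. There 8 of 16 growth-cone genes rose and 1 fell, with Marcks going from 7.21 and 9.67 CPM to 53.0, 31.3 and 47.6 (2.05, adjusted p = 0.0066, and 0.058 without mouse 5), and the count was 5 without mouse 1, 4 of 15 without mouse 4 and 2 of 15 without mouse 5. In the same cells 6 of 13 immune markers rose and 2 fell, 3 and 0 without mouse 5. The median mitochondrial share of the Basp1-negative cells of the segment was 23.0% and 21.9% at 48 h and 7.44%, 9.27% and 7.19% at day 10, and its part in these changes was not tested. The injury list had 8 of 24 rising and 3 falling, the latter being Cd24a (-0.93), Spp1 (-1.39) and Clu (-1.67), with 5 rising without mouse 2 and a single gene without mouse 5. Of the actin list 3 of 23 rose, and of the WT1 list Wnt4 rose (3.99) and Smarca4 fell (-0.56) among 16. In distal tubule and principal cells, summed, 1 of 12915 genes (0.00774%) passed by edgeR, 1023 had an unadjusted p under 0.05 and about 1.1e2 passed with DESeq2. No gene of the 4 lists passed by edgeR there (4 higher and 10 lower at an unadjusted p under 0.05, and 1 by DESeq2), and Basp1 stood at 14.5 and 7.95 CPM and then 41.2, 38.2 and 36.0.

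Genes whose level followed Basp1 most closely were sought over tubule labels and mice, as a description over 64 points that share libraries and differ in depth. Over 8522 genes the highest Pearson correlations of log2(CPM + 1) were those of Tgfb1, Bok, Rnf19b and Rbpms (r = 0.80 each), and Marcks was the tenth (r = 0.79; 0.52 over the 26 points of 48 h and 0.85 over the 38 of day 10). Nsa2, Csf1, Rps27, Bax and Eif3m stood between them. Over all labels (84 points, 9081 genes) Rnf19b (0.81), Runx1 (0.80), Eif4a1, Nsa2 and the actin monomer binder Pfn1 (0.79 each) led, followed by Ifngr2 and 4 ribosomal protein genes.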

How the data were processed

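Single cells of 5 mouse kidneys were captured in droplets and sequenced by 10x 3' v3.1 chemistry, per the labels. The authors deposited raw UMI counts per gene and barcode, with a table of 23797 kept cells in 18 labels and 16 clusters that also holds each cell's percent of mitochondrial UMIs and the authors' embedding scores, which were not used. The submitters' processing notes name Cell Ranger 6.0.2, Seurat 4.0.5 and mm10, and the matrix headers Cell Ranger 6.0.0. Kept cells per library were 4895, 3720, 5912, 3909 and 5361 with 45887945 to 78351722 UMIs. Basp1, the lists and the comparisons were chosen with earlier results of these data known, and the comparisons within thin limb, thick limb and principal cells, the thin limb time contrast and the matching on mitochondrial share were added after its levels were seen.

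UMIs were summed per mouse and label (at least 20 cells). Positive and negative cells were matched without replacement (UMIs within 10%, at least 10 pairs per mouse, at least 3 mice) and Basp1 was left out of the test. Counts were tested with edgeR 4.0.16 in R 4.3.3 (filterByExpr, TMM, quasi-likelihood test, Benjamini-Hochberg over all genes tested, threshold 0.05); the SE was taken as the log2 fold change divided by the square root of the F statistic. CPM are of summed raw UMIs. Both classes came from the same mice, hence the block for mouse. The labels do not say more on how the animals were handled. In the comparisons of times, p-values measure the spread between these mice. With the block, they measure how far the difference between the classes varied from mouse to mouse. Alternatives were DESeq2 1.42.0, RLE factors, no low-count filter, no block, 2 or more Basp1 UMIs, thinning to 1000 UMIs, leaving out immune-marked cells, Scrublet doublets (Scanpy 1.11.5; 0.256% to 2.78% of cells) or each mouse. The fits were also run on simulated counts with a single fixed dispersion and no difference between mice. That setting cannot show how the calls depend on single mice or on the block.

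Named genes were Basp1, members of 4 lists (growth-cone and membrane-effector, WT1 and its corepressor, cortical actin, tubule injury), cell markers, the 10 genes most like Basp1 and, per segment, genes among the 10 largest rises and falls past the threshold with an average log2 CPM of at least 5 and 1 direction in every mouse, gene models, mitochondrial and ribosomal protein genes aside. Of the growth-cone list 19 of 20 genes were found by symbol. Fewer cells of a state within a label and less RNA per cell cannot be told apart in summed UMIs.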

Additional observations from a re-analysis of the deposited data

Results flagged for a closer look

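Some genes differed between Basp1-positive and matched negative cells in opposite directions in different segments, with every mouse of each segment on its side. Ncam1 was higher in injured proximal tubule (log2 fold change 2.09) and principal cells (1.5) and lower in the descending thin limb (-1.32). Vcam1 was higher in injured proximal tubule (1.54) and thick ascending limb (4.02) and lower in the thin limb (-0.99). Vim was higher in injured proximal tubule (2.32) and thick ascending limb (2.04) and lower in the thin limb (-3.02). The difference between segments was not tested.

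Basp1 itself stood apart between cell classes in time. The ratio of day 10 to 48 h was 0.559 in immune cells and 19.5 in the descending thin limb, with all mice of each class on 1 side, and this difference was not tested either.

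Barcodes that the authors left out of their table also held Basp1. Its level there was 8.80 CPM in mouse 1 and 6.78 in mouse 2, and 79.1, 87.2 and 87.7 in mice 3, 4 and 5, with no overlap between the times. These barcodes had a median of 36.7% to 53.8% mitochondrial UMIs and carry no cell label.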

How the results depend on the processing

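Counts of genes between Basp1-positive and negative cells depended on the settings, and so did the number of genes tested. In the thin limb 162 became 46 with DESeq2, 459 with no low-count filter, 10 with no replicate block and 26 when thinned. In principal cells 198 became 76, 480, 0 and 99, and 324 with 2 or more Basp1 UMIs. In the thick limb 455 became 128, 734, 108 and about 1.1e2, and 258 with 2 or more Basp1 UMIs. In injured proximal tubule 1913 became 843 with DESeq2, 1068 with no replicate block and 195 when thinned, and over all tubule cells 1870 became 978, 31 and 458, and 767 matched on mitochondrial share. As shares, the thinned counts were 1.75% of 1484 genes in the thin limb, 18.5% of 535 in principal cells and 26.0% of 431 in the thick limb. They were 22.6% of 862 in injured proximal tubule and 12.1% of 3795 over all tubule cells. With no filter the shares were 2.86% of 16050 genes in the thin limb, 2.76% of 17364 in principal cells and 4.34% of 16929 in the thick limb. For time, no filter gave 1306 genes in the thin limb (7.18% of those tested), 1143 over the proximal tubule (5.57%) and 2429 in the thick limb (12.5%). It gave 92 in distal tubule and principal cells (0.462%) and 2402 in injured proximal tubule (12.7%). DESeq2 gave 1203 over the proximal tubule, about 1.1e2 in distal tubule and principal cells and 1303 in injured proximal tubule. Leaving out immune-marked cells gave 3 in distal tubule and principal cells. The Basp1 level in injured proximal tubule was 13.7 CPM without cells of 5 or more Basp1 UMIs. That choice was made on Basp1 itself and lowers the level by construction. The cause of the other changes was not tested. Leaving out each mouse gave 64 to 203 genes in the thin limb, 58 to 326 in principal cells, 174 to 481 in the thick limb, 734 to 2503 in injured proximal tubule and 814 to 2362 over all tubule cells. For time it gave 163 to 592 in the thin limb, 27 to 594 over the proximal tubule, 86 to 1379 in the thick limb, 0 to 12 in distal tubule and principal cells and 107 to 887 in injured proximal tubule, and a Basp1 level of 49.3 to 101 CPM. Cd74 in the thick limb reversed to -0.44 without immune-marked cells. No paired analysis was possible between times because the mice of the 2 times are different animals and share no replicate number. The comparison of injured proximal tubule cells matched on mitochondrial share could not be fitted, with 2 mice left. Small labels and shallow cells limit what a count of 0 Basp1 UMIs can show.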
